A study of Mus musculus with 6 samples.

Results

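The Eif genes carry the mouse symbols of eukaryotic translation initiation factors and their close regulators. All genes whose array symbol begins with Eif were taken, except Eif2ak3, and 50 genes of 16840 named on the arrays met this rule. The rule uses symbols only, but it was chosen with earlier results of these data known. All 50 had at least 1 measurable window, and together they were covered by 1378 probes and 1207 windows. The rule also took in genes that are not initiation factors in the strict sense: Eif2c1 to Eif2c4 are older symbols of the Argonaute genes Ago1 to Ago4, the Eif4ebp genes and Eif4enif1 encode eIF4E-binding proteins, and the Eif2ak genes encode kinases of eIF2. Current symbols are used throughout, with the array symbol in brackets where it differs. Eif4e and Eif6 were not among the symbols read from the array annotation, so they have no values here.

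Initiation begins when the small ribosomal subunit, held by eIF1, eIF1A and the large eIF3 scaffold, receives the initiator tRNA from the ternary complex of eIF2 with GTP. The eIF4F complex, made of the cap-binding protein eIF4E, the scaffold eIF4G and the helicase eIF4A, brings this subunit to the mRNA cap. Control falls mainly on eIF2, which stress kinases phosphorylate and eIF2B recharges with GTP, and on eIF4E, which the 4E-BP repressors block until mTORC1 phosphorylates them, a switch well known in growing muscle fibres. TEAD4 is a transcription factor of the TEA domain family, binds the muscle CAT element GGAATG, and is expressed during myoblast differentiation.

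Occupancy of promoters by TEAD4 was measured by chromatin immunoprecipitation on promoter arrays in C2C12, a mouse myoblast line that forms myotubes in low serum. Cells carried a retrovirus for Flag-HA-tagged TEAD4 or the empty retrovirus, were held under puromycin as infected populations, spent 5 days in 2% horse serum, and were fixed with 0.4% formaldehyde. Both groups were precipitated with the same anti-Flag antibody, so the empty-vector sample gives the background of the precipitation without the tag. There were 2 TEAD4 samples and 1 control sample, each on 2 array designs. Nothing in the labels says that the TEAD4 duplicates came from separate cultures, so p-values measure a spread that may be technical. The tagged protein came from a viral vector, its amount was not measured here, and the arrays hold no RNA data against which the cell type could be checked.

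Each value is log2 of precipitated (IP) over input DNA, centred on the array's median and averaged over a window of at least 3 probes, made of a central probe and those up to 500 bp to its left and right. Distances are those of the array annotation from a gene's start, negative upstream. The annotation gives no exon or intron. Coordinates are printed as in the files, for which the sources used here give no genome build. Neighbouring windows share probes, and some hold exactly the same probes and values but were counted once per central probe. The control sample stood apart from both TEAD4 samples over the whole array: the SD of its windows was 1.04, against 0.38 and 0.40, and over the probes of the Eif genes its median IP signal was 2.01 times background, against 4.46 and 5.26. Its input signal was 6.92 times background, against 3.46 and 3.41. Each sample was scanned separately and the control arrays were extracted with a different scan setting (extended dynamic range), so sample, scan and setting cannot be told apart, and a value above or below the control carries all of them.

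In both TEAD4 samples, IP exceeded input by 2-fold or more in at least 1 window of 8 of the 50 Eif genes (16%); the same rule took 5.19% of the 16534 genes with a window. They were Eif2s1, Eif4ebp1, Eif4g3, Eif4e2, Eif2b4, Eif2s2, Eif4a2 and Eif4g2. Of these, 6 (12.0% of the Eif genes, against 2.55% of all genes) had such a window that also exceeded the control by 2-fold; Eif4ebp1 and Eif2b4 did not. The 8 came from 4 functional groups: 2 of 11 genes of start codon selection and the ternary complex, 1 of 4 eIF2B genes, 4 of 10 genes of the cap-binding and helicase group and 1 of 4 eIF4E-binding proteins. In the control, 48 Eif genes (96.0%, against 85.6% of all) held a window of that size over input. None of the 12 eIF3 genes, 3 eIF2 kinase genes, 4 Argonaute genes or 2 eIF5A genes passed. By limma's moderated test with Simes p-values per gene, adjusted over all genes, 18 Eif genes (36.0%, against 23.9% of all) were higher than input and 4 (8.0%, against 11.8%) lower. The size rule depended on the processing: 5 Eif genes (3.79% of all genes) passed it with normexp background correction, 3 (2.21% of all) with 1000 bp on each side, 13 (15.3% of all) with arrays scaled to a common spread and 20 (27.9% of all) with quantile normalisation. On the second TEAD4 sample alone 11 Eif genes and 15.5% of all passed, and on the first alone 10 and 8.05%. Eif4ebp1 and Eif4g3 passed in all 12 alternatives that kept the 2-fold threshold, and Eif2s2, with 8, in the fewest. Eif2b4, Eif2s2 and Eif4a2 were lost both with normexp and with 1000 bp, Eif2s1 with normexp, and Eif4e2 and Eif4g2 with 1000 bp. With 250 bp on each side Eif2b4 and Eif2s2 were lost too, and with at least 5 probes per window Eif2s2 and Eif4g2.

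**Figure D1:**
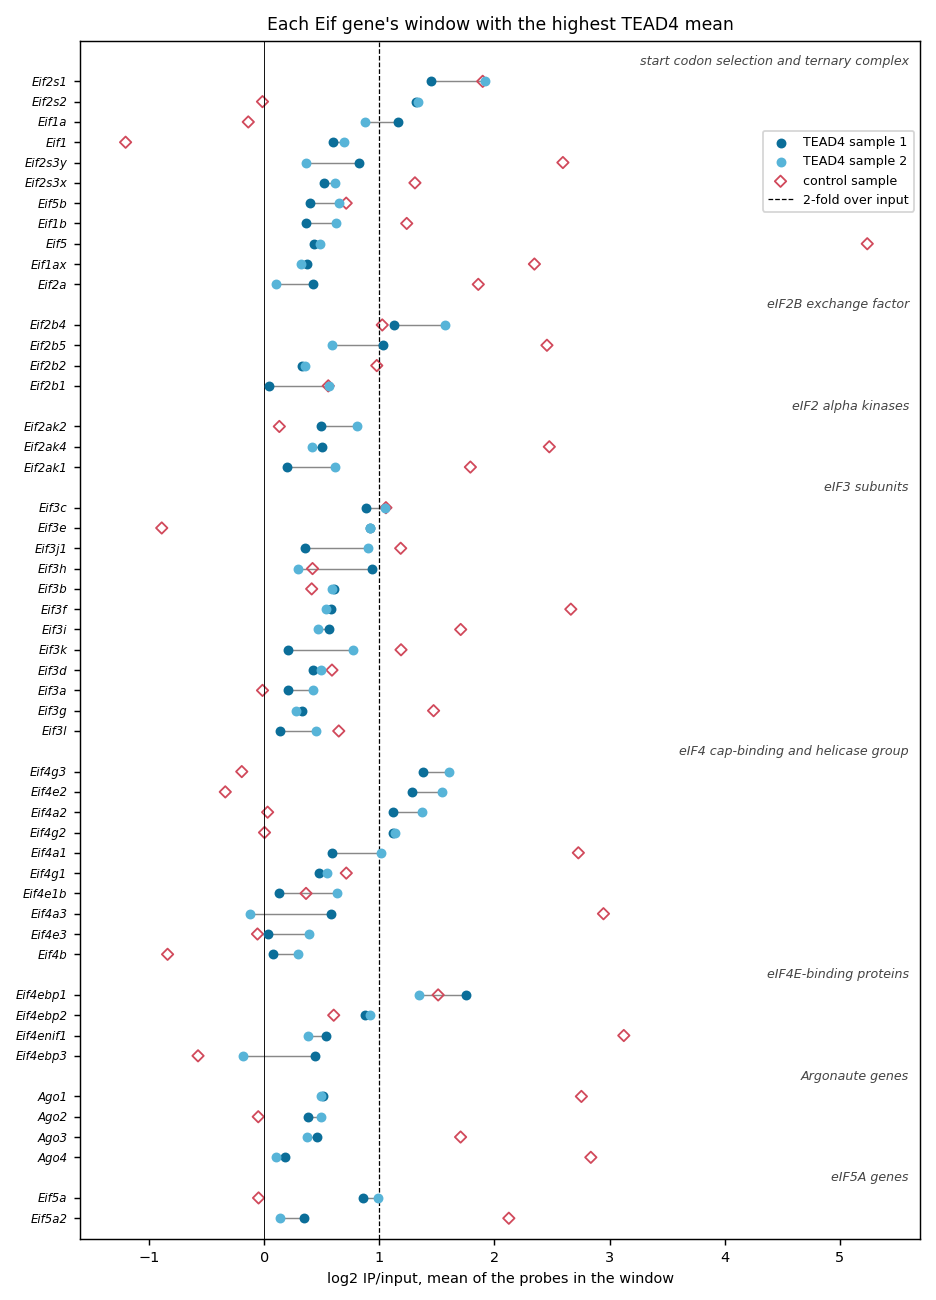
Each Eif gene's window with the highest mean of the TEAD4 samples, by functional group; the horizontal axis is log2 IP over input, filled points are the 2 TEAD4 samples joined by a line, and open diamonds the control sample. In 8 genes both filled points lie at or to the right of the dashed line at 2-fold, and the control ranges from -1.20 at Eif1 to 5.24 at Eif5.

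Among the genes of the ternary complex, Eif2s1, which encodes the alpha subunit of eIF2 that stress kinases phosphorylate, had the highest TEAD4 window of all 50. In its top window, centred at -200 bp (chr12:79780237-79780851, 5 probes), log2 IP over input was 1.45 and 1.91 in the TEAD4 samples and 1.90 in the control. The control thus lay between the TEAD4 values there. The gene was higher than input (limma, adjusted p = 5.51e-05), with a TEAD4 mean of 1.68 ± 0.33 (SD, n = 2). The 6 windows over 2-fold, of which those at 471 and 608 bp hold the same probes, ran from -303 to 608 bp. Control and TEAD4 parted within this run. At 471 bp downstream (chr12:79781231-79781891) the TEAD4 samples held 1.22 and 1.05 while the control held -0.45. The TEAD4 mean of this window was 1.58 above the 1 control sample on the log2 scale. The upstream window is shared with Atp6v1d, a subunit gene of the vacuolar proton pump, so it cannot be assigned to 1 of the 2 genes. The 250 bases before the RefSeq start of Eif2s1 are shown because this was 1 of 2 Eif genes whose start window was over 2-fold in both TEAD4 samples; it lies on the plus strand of GRCm38.p6 at chr12:78861822-78862071 and holds neither GGAATG nor its complement CATTCC.
Eif2s1: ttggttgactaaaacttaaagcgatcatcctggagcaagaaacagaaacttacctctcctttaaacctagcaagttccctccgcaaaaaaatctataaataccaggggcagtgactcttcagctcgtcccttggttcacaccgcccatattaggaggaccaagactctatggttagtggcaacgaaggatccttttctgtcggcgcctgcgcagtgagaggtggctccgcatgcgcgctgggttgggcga

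Eif2s2, which encodes the beta subunit, had its top window 972 bp downstream of the start (chr2:154582986-154583639, 3 probes). TEAD4 values were 1.31 and 1.33, and the control was at -0.02. Both TEAD4 samples were above the control there, and the gene was higher than input (limma, adjusted p = 0.000523). At 1698 bp downstream, TEAD4 was 0.61 and 0.58 and the control -1.28, a difference of 1.88 that was the largest among the Eif genes. At 456 bp downstream the order was turned, with 1.28 and 0.79 in TEAD4 and 2.11 in the control.

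Other genes of the scanning complex lay lower. Eif1a, which encodes eIF1A, a factor that keeps the scanning subunit open, was just below the 2-fold rule, with 1.17 and 0.88 in TEAD4 and -0.14 in the control at 539 bp downstream. Its gene-level test against input passed (limma, adjusted p = 0.00245). At -189 bp the order was turned, with 0.29 and 0.06 in TEAD4 and 3.1 in the control. Eif1, which encodes the guardian of start codon choice, held 0.60 and 0.69 in TEAD4 at 1278 bp downstream and -1.20 in the control. Its excess over the control, 1.85, was the second largest among the Eif genes and lay where the control was below input. Eif5, which encodes the factor that triggers GTP hydrolysis by eIF2, had the control far above TEAD4. At 283 bp downstream it held 0.43 and 0.49 in TEAD4 and 5.24 in the control, the highest control value and, with a TEAD4 minus control of -4.78, the lowest difference of all 50. In this group of 11 genes, limma called 5 higher than input (23.9% of all genes were) and 1, Eif2a, lower (11.8% of all).

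The eIF2B complex exchanges GDP for GTP on eIF2. Eif2b4, which encodes its delta subunit, had its top window at -99 bp (chr5:31469514-31470163, 5 probes), with 1.13 and 1.57 in TEAD4 and 1.03 in the control. The control was the lowest of the 3 values, but by less than the distance between the TEAD4 samples. The gene was higher than input (limma, adjusted p = 0.000842), and its window is shared with Snx17, a sorting nexin gene. Single probes were uneven in the control, from -1.13 to 3.96, against 0.43 to 1.88 and 0.56 to 2.57 in TEAD4. Eif2b5, which encodes the catalytic epsilon subunit, held 1.03 and 0.59 in TEAD4 and 2.46 in the control at -1263 bp. It was higher than input by limma (adjusted p = 0.016) without passing the 2-fold rule in the second TEAD4 sample. At its start window the TEAD4 samples held 0.28 and 0.48 and the control 3.05. Eif2b1 and Eif2b2, for the alpha and beta subunits, had top windows with TEAD4 means of 0.30 and 0.34. The bases before the RefSeq starts of Eif2b4, the other gene with a start window over 2-fold, and of Eif2b5, which holds the TEAD element, are shown with the element in capitals; they lie at chr5:31193140-31193389 on the minus strand and chr16:20498567-20498816 on the plus strand of GRCm38.p6.
Eif2b4: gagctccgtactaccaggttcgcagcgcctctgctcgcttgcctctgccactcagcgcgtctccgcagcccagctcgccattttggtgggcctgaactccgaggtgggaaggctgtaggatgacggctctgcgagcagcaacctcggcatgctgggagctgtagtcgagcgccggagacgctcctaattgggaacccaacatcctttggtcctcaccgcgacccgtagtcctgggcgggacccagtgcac
Eif2b5: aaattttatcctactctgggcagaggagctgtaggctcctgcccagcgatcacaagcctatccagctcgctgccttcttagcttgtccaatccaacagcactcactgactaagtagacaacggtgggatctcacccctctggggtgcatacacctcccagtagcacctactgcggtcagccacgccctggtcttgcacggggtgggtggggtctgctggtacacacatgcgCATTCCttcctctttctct

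The element of Eif2b5 is CATTCC at -19, and its start window was under 2-fold in both TEAD4 samples. The start window of Eif2b4, whose listed promoter lacks the element, was over 2-fold in both. Array windows were not placed on the bases shown, and a link between the element and TEAD4 signal was not tested. The 3 genes for kinases that phosphorylate eIF2 alpha did not pass the 2-fold rule (5.19% of all genes did). Eif2ak4, which encodes the amino acid sensor GCN2, held 0.50 and 0.42 in TEAD4 and 2.48 in the control in its top window, and it was not called against input (limma, adjusted p = 0.169). Eif2ak2, which encodes the double-stranded RNA sensor PKR, was called higher than input (limma, adjusted p = 0.0417) with 0.49 and 0.80 in TEAD4.

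The eIF3 complex is the scaffold that joins the small subunit to eIF4G, and its 12 genes had top windows with TEAD4 means from 0.29 to 0.96. None passed 2-fold in both TEAD4 samples (5.19% of all genes did). By limma 2 were higher and 2 lower than input (23.9% and 11.8% of all). Eif3e (Eif3s6) was the member nearest below the threshold: at 779 bp downstream both TEAD4 samples were at 0.91, and the control was at -0.89. Its difference from the control, 1.81, was the third largest among the Eif genes, and limma called the gene higher than input (adjusted p = 0.00196). Eif3c (Eif3s8), a core subunit, held 0.88 and 1.05 in TEAD4 and 1.06 in the control at 459 bp downstream, so the control was the highest of the 3 values, close to the second TEAD4 sample. Eif3a (Eif3s10), the largest subunit, was low in TEAD4 throughout, with 0.21 and 0.42 in its top window and -0.02 in the control. At its control maximum, 296 bp downstream, the control was at 3.08 while TEAD4 held 0.11 and 0.01. Eif3g (Eif3s4) had the third highest control window of the Eif genes, 3.66 at 33 bp downstream, against 0.05 and 0.22 in TEAD4. The promoters of Eif3b (Eif3s9) and Eif3f (Eif3s5) were the other 2 that held the TEAD element, and their bases before the RefSeq start, with the element in capitals, lie on the plus strand at chr5:140419055-140419304 and chr7:108934165-108934414.
Eif3b: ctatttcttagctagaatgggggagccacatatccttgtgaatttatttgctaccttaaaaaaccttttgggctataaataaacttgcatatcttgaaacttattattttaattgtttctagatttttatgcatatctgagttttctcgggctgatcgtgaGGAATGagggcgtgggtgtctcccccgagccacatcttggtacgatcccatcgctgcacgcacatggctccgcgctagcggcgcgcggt
Eif3f: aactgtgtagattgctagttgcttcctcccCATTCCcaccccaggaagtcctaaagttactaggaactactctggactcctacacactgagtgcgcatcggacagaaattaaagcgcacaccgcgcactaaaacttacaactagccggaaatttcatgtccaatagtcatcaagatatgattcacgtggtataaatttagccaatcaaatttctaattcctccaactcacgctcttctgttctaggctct

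In their start windows, Eif3b held 0.62 and 0.46 in TEAD4 and 2.28 in the control, and Eif3f held 0.58 and 0.54 in TEAD4 and 2.66 in the control. Both genes thus lay under 2-fold in TEAD4 and over it in the control.

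The cap-binding and helicase group held 4 of the 8 genes that passed, and in all 4 the control was near or below input in the top window. Eif4g3, which encodes a paralog of the eIF4G scaffold, had its top window at -3313 bp (chr4:137261827-137262634, 3 probes), with 1.38 and 1.61 in TEAD4 and -0.20 in the control. It was higher than input (limma, adjusted p = 0.000147). Its 5 windows over 2-fold ran from -4107 to -3313 bp. The 3 farthest of them hold the same 4 probes, and there the control was at 1.36, against 1.53 and 1.36 in TEAD4. At the start itself TEAD4 was at 0.23 and 0.01 and the control at 2.83. The enriched stretch of Eif4g3 was thus apart from its start, and the control lay below both TEAD4 samples in all 5 of its windows, by little in the 3 farthest.

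Eif4e2 encodes 4EHP, a cap-binding protein that does not bind eIF4G and represses translation. At -765 bp (chr1:89044113-89044671, 4 probes) it held 1.29 and 1.54 in TEAD4 and -0.34 in the control. None of its 4 control probes reached 2-fold over input, and the gene was higher than input by limma (adjusted p = 0.000398). Within 1 kb the order was turned: at 17 bp downstream the control held 2.37 and TEAD4 0.83 and 0.55.

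Eif4a2 encodes a helicase of the eIF4A type and was over 2-fold in 3 windows from 274 to 648 bp downstream. In the top window, at 538 bp (chr16:23023115-23024062, 6 probes), TEAD4 was at 1.12 and 1.37 and the control at 0.03. Over the 6 probes the control ranged from -2.17 to 2.44, wider than either TEAD4 sample, and the gene was higher than input (limma, adjusted p = 0.000463). At -769 bp the order was turned, with -0.16 and -0.34 in TEAD4 and 1.78 in the control. Its paralog Eif4a1 held 0.59 and 1.02 in TEAD4 and 2.73 in the control at 334 bp downstream, so it was over 2-fold in 1 TEAD4 sample only and below the control in both. Eif4g2, which encodes DAP5, an eIF4G relative without the eIF4E-binding site, held 1.12 and 1.13 in TEAD4 and 0.00 in the control at 1250 bp downstream (chr7:110872726-110873265, 4 probes). It was higher than input by limma (adjusted p = 0.00158), and at 181 bp downstream its control reached 3.35 against 0.44 and 0.41 in TEAD4. Eif4g1, the main scaffold gene, was not called against input (limma, adjusted p = 0.0912). Its top window, 19469 bp downstream of the start, held 0.48 and 0.55 in TEAD4 and 0.71 in the control. In its start window TEAD4 was at 0.11 and 0.42 and the control at 1.83. Eif4b, which encodes a cofactor of the helicase, had a TEAD4 top mean of 0.19 and at -5404 bp the second lowest difference from the control, with -0.06 and -0.70 in TEAD4 and 3.25 in the control.

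**Figure D2:**
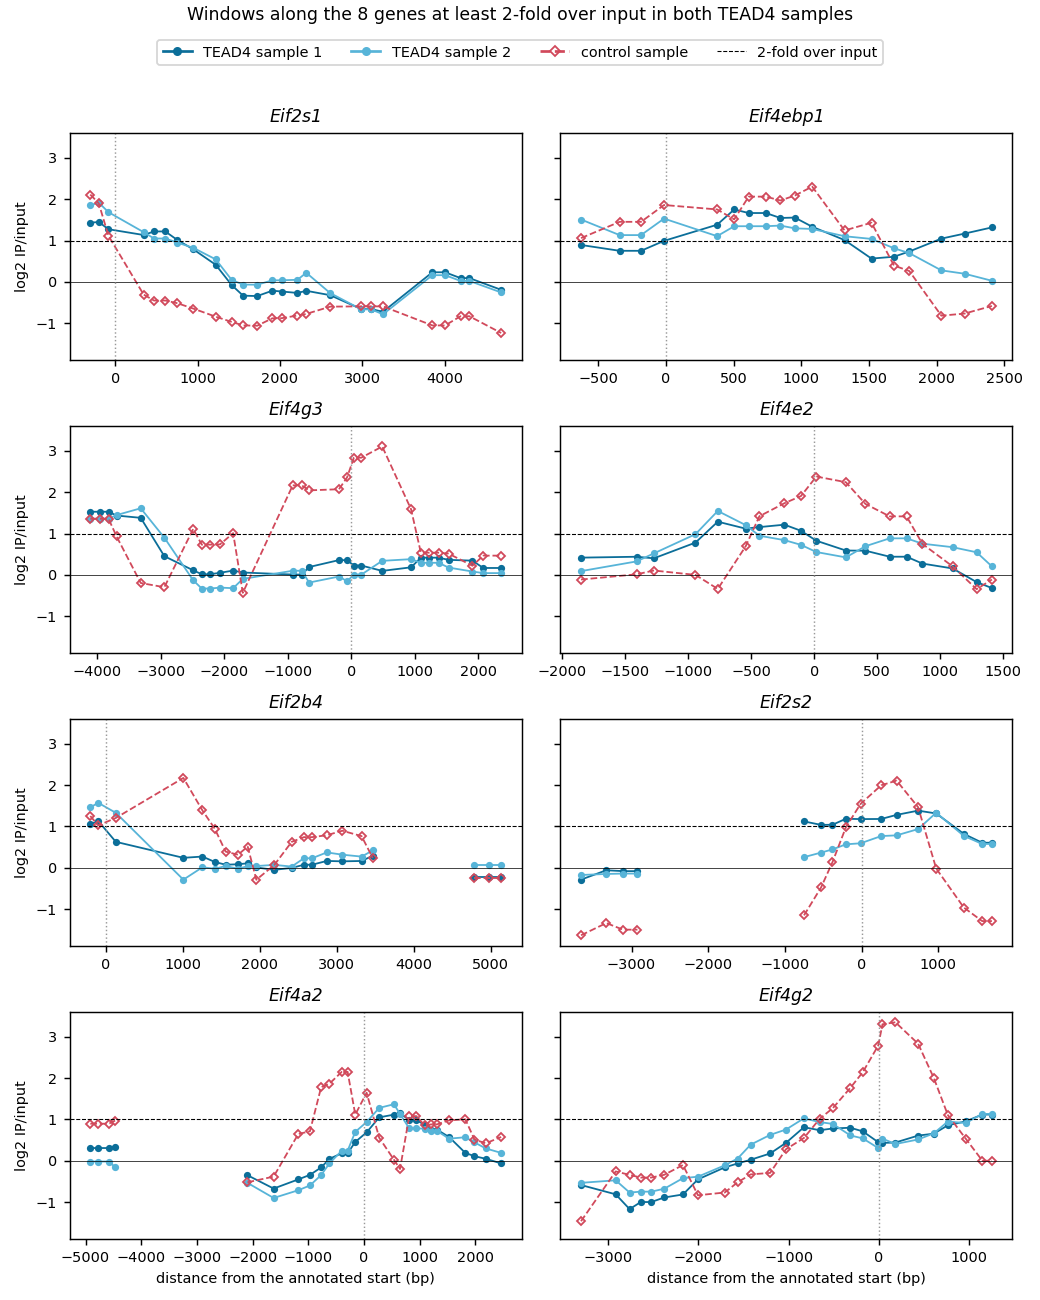
Windows along the 8 Eif genes past the 2-fold rule; the horizontal axis is distance from the annotated start in bp, the vertical axis log2 IP over input, filled circles are the TEAD4 samples and open diamonds the control. Lines break where windows are far apart. The control is highest near the start of Eif4g2 (3.35) and of Eif4g3, while the highest TEAD4 windows lie where the control is near or below 0 in Eif4e2, Eif2s2, Eif4a2 and Eif4g2.

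Among the eIF4E-binding proteins, Eif4ebp1, which encodes the repressor 4E-BP1 that mTORC1 switches off, had the most enriched windows, 8 between 379 and 1320 bp downstream. Those at 612 and 739 bp hold the same 7 probes. In the top window, at 505 bp (chr8:28726619-28727239, 6 probes), TEAD4 was at 1.75 and 1.34 and the control at 1.51, between the TEAD4 samples. All 6 probes were over 2-fold in both TEAD4 samples, and 5 of them were in the control. The gene was higher than input (limma, adjusted p = 0.000123), and in all 8 of these windows the control was over 2-fold as well. At 2035 bp downstream the control was at -0.81 while TEAD4 held 1.05 and 0.28. Eif4ebp2, for a second 4E-BP, held 0.88 and 0.92 in TEAD4 and 0.60 in the control at 991 bp downstream. Eif4enif1, which encodes the eIF4E transporter, held 0.45 and 0.26 in TEAD4 and 3.82 in the control at -102 bp, the second highest control window of the Eif genes.

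The Argonaute genes, which encode the small RNA-binding core of the silencing complex, had TEAD4 top means from 0.14 to 0.50, with adjusted p against input by limma from 0.233 (Ago1) to 0.992 (Ago4). Ago2 (Eif2c2), the member that cleaves its targets, was covered only far downstream of its annotated start, and in its top window, at 33876 bp, TEAD4 was at 0.38 and 0.49 and the control at -0.05. Eif5a, which encodes the hypusine-bearing factor that helps the ribosome form difficult peptide bonds, held 0.86 and 0.99 in TEAD4 and -0.05 in the control at 1411 bp downstream, and was higher than input (limma, adjusted p = 0.00476) without passing 2-fold.

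The window nearest the annotated start is not chosen for its value, and there the Eif genes were described by medians. The median over the 50 genes was 0.34 and 0.32 in the TEAD4 samples and 1.97 in the control, and over all genes 0.19, 0.14 and 1.27. Both TEAD4 samples were above 0 at 41 Eif genes (82.0%, against 56.8% of all genes). Only Eif2s1 and Eif2b4 were over 2-fold in both (4.0%, against 1.02%), and Eif4ebp1 missed it in the first sample with 0.99. The control was over 2-fold at 45 Eif starts (90.0%, against 58.5%) and above both TEAD4 samples at 47 (94.0%, against 77.5%). The 3 starts at which both TEAD4 samples were above the control were those of Eif2s1, Eif2b4 and Eif4b, the last with -0.28 and -0.30 in TEAD4 and -0.76 in the control. Across the 50 genes, start window values of the TEAD4 samples correlated with r = 0.73, and their mean correlated with the control with r = 0.03, against 0.65 and 0.33 over all genes; these are descriptions across genes measured on the same arrays. The median of the control stayed above that of TEAD4 in all 10 alternative settings that gave both, by the least with normexp background correction (0.27 in TEAD4, 0.44 in the control).

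**Figure D3:**
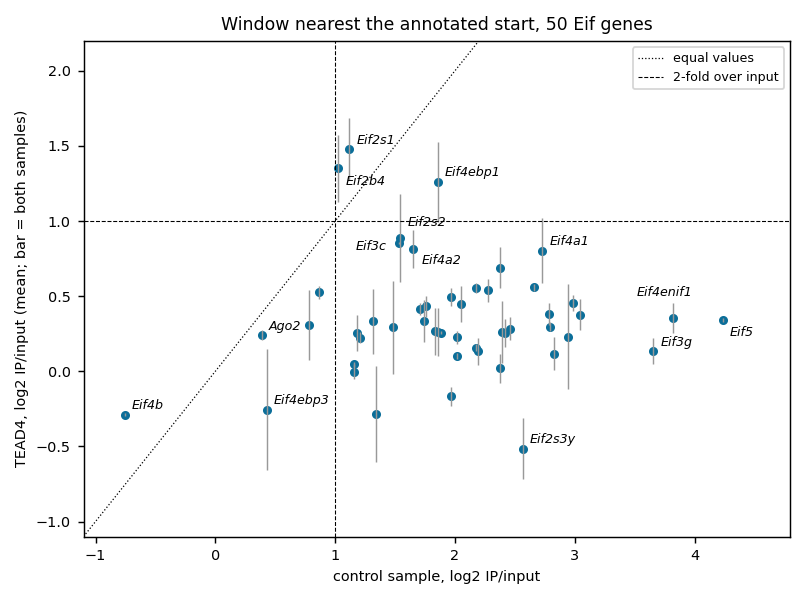
Window nearest the annotated start of each of the 50 Eif genes; the horizontal axis is the control sample and the vertical axis the TEAD4 mean, both as log2 IP over input, with a bar joining the 2 TEAD4 samples. Eif2s1 and Eif2b4 lie above the dashed 2-fold line with the whole bar, and 45 genes lie to the right of the vertical 2-fold line in the control.

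By distance from the start, the control peak stood over the start itself. Between the start and 500 bp downstream the median over 47 Eif genes was 0.36 and 0.31 in TEAD4 and 1.75 in the control, and between 1000 and 1500 bp upstream the medians over 22 genes were -0.18, -0.21 and 0.01. Between 1500 and 2000 bp upstream the medians over 21 genes were -0.16, -0.09 and -0.29, with the control the lowest. Top windows were compared by their distance from the start: the control top lay within 500 bp of the start in 38 Eif genes (76.0%, against 49.1% of all) and the TEAD4 top in 21 (42.0%, against 33.9%).

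**Figure D4:**
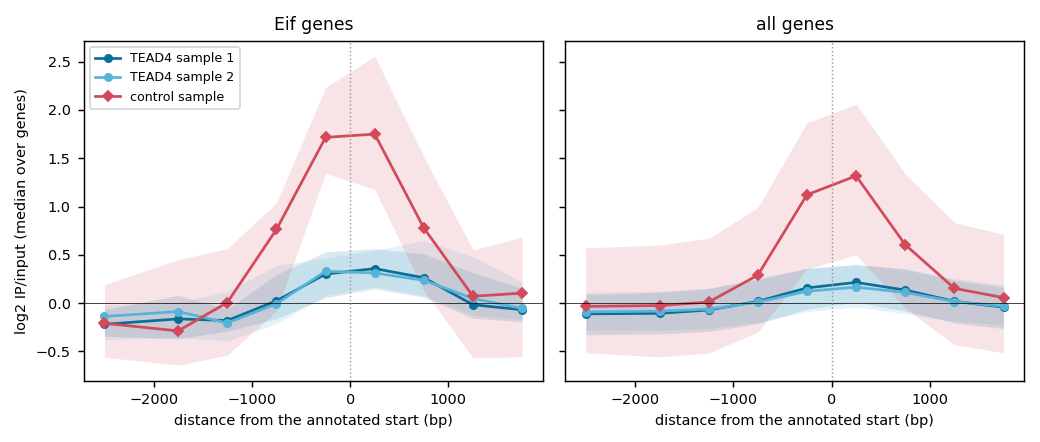
Median log2 IP over input by distance from the annotated start for the Eif genes (left) and all genes (right), in the 2 TEAD4 samples and the control; shading spans the first to the third quartile of the genes. In the Eif genes the control reaches 1.75 between 0 and 500 bp downstream, and in all genes 1.32.

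Set against the control, both TEAD4 samples were higher by 2-fold or more in some window of 22 Eif genes (44.0%, against 29.9% of all), and lower by as much in some window of 43 (86.0%, against 81.8%). In limma, which assigns each gene to the direction of its strongest window, 6 Eif genes (12.0%, against 12.4% of all) were higher than the control and 43 (86.0%, against 81.0%) lower. The 6 were Eif2s1, Eif2s2, Eif1, Eif3e, Eif4ebp1 and Eif4ebp3. The strongest window of Eif4ebp3, at -3121 bp, held -0.32 and -0.43 in TEAD4, below input, and -1.63 in the control. That of Eif4ebp1, at 2035 bp downstream, held 1.05 and 0.28 in TEAD4 and -0.81 in the control. The control entered this fit as 1 sample with the spread of the TEAD4 pair, although its own windows varied more widely, so these calls do not measure the control's spread. The median window of all genes lay 0.26 below the control on the log2 scale, and the split followed the scaling. With loess 10 Eif genes were higher and 38 lower (20.8% and 70.1% of all genes), and without centring 20 and 29 (50.4% and 46.0%). With quantile normalisation they were 8 and 3 (6.51% and 3.13% of all), and with normexp 1 and 2 (1.69% and 4.45%). With a common spread they were 0 and 0 (0.774% and 0.206% of all). There 10 and 6 had an unadjusted p under 0.05, for which no share of all genes was counted. Counts of Eif genes above and below the control thus changed with the scaling, and so did the shares of all genes.

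RefSeq promoters of GRCm38.p6, from 250 bases before to 50 after the start, were listed for 40 of the 50 genes, 53 promoters in all. GGAATG, searched on both strands, was in 3 of them (5.66%), against 13.1% of the 16249 promoters of genes with a window. CACGTG, the palindromic E-box, was in 10 promoters of 8 Eif genes (18.9%, against 8.65%); Eif5a, Eif4a1, Eif4g1, Eif3a, Eif3f, Eif3k (Eif3s12), Eif1b and Eif5a2 held it. The Eif promoters had a median of 25 CpG and 64.7% GC, against 16 and 58.0% for genes with a window, so the background of each motif differs in base composition too. The listed promoters of Eif2s1, Eif2s2, Eif2b4, Eif4a2, Eif4e2 and Eif4g3 held neither motif. Enriched windows farther from the start, such as those of Eif4g3 from -4107 to -3313 bp, were not searched for either motif. A motif match is a description of these letters, not a site.

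Genes that act beside the Eif genes were described from 2 lists. Of 11 measured genes of elongation and termination, none had a window 2-fold over input in both TEAD4 samples (5.19% of all genes did), and limma called 2 higher than input, Eef1b2 and Abce1 (23.9% of all), and 1 lower, Eef2 (11.8% of all). Abce1, which encodes the ribosome recycling ATPase, held 1.20 and 0.48 in TEAD4 and 2.66 in the control. Of 21 measured regulators of initiation, 2 passed the 2-fold rule and limma called 11 higher than input and 1, Mcts1, lower, to be read against the same shares of all genes. Pabpc4, which encodes a poly(A)-binding protein, held 1.20 and 1.95 in TEAD4 and -0.06 in the control at 669 bp downstream, and both TEAD4 samples were above the control. Ppp1r15a (Myd116), which encodes GADD34, the phosphatase subunit that reverses eIF2 alpha phosphorylation, held 1.54 and 1.11 in TEAD4 and 0.58 in the control. The median top window was 0.56 for elongation and termination and 0.63 for the regulators, beside 0.51 for the Eif genes and 0.40 for all genes.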

How the data were processed

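DNA from 2 TEAD4 samples and 1 control sample was hybridised to 2 Agilent promoter array designs, 6 arrays in all, with 4 µg of IP DNA in Cy5 and 4 µg of input DNA in Cy3 on each, per the labels' protocols. Per the file headers, the authors' scanner software (Agilent Feature Extraction, version 9.5.3.1) made the deposited processed intensities. The deposited log10 ratios, log10 of IP over input, equal the series' value table. Only the intensities entered the main analysis: log2 of IP over input, centred on each array's median, without control spots, probes without a position or probes flagged as non-uniform (236180 and 235690 probes kept).

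Each design's windows were fitted on their own in limma (version 3.58.1, R 4.3.3), and TEAD4 was tested against 0 and against the control. The fit had 1 residual degree of freedom and prior degrees of freedom of 13.4 and 13.9. The lone control sample was given the spread of the TEAD4 pair, so no p against the control is printed per gene. Simes p-values per gene were adjusted by Benjamini-Hochberg over 16534 genes at a two-sided 0.05. On simulated data 100% of genes raised 2-fold were recovered against input and 61.2% against the control. In each comparison 120 of 16305 unaltered genes were called. Windows of the real control varied more widely (SD 1.04, against 0.38 and 0.40 in TEAD4). The rates therefore describe the simulation and not recovery in these data. Array symbols were updated by accession for 49 members and by symbol for 1 through RefSeq (GRCm38.p6, names and promoter sequences only); 17 changed name.

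Members and lists were chosen with earlier results of these data known. Genes with values in the text were those passing the 2-fold rule, the 3 just below it, and fixed names. Others had the 3 largest or 2 lowest differences from the control, or the 3 highest control windows. Ago1, Ago4, Eif2ak2, Eif2b1, Eif2b2, Eif3b, Eif3f, Eif4ebp2 and Eif4ebp3 were added after their values were seen. So were the list genes named without passing the 2-fold rule. The number of arrays limits the precision.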

Additional observations from a re-analysis of the deposited data

How the results depend on the processing

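No paired analysis was possible because there was only 1 control sample and no label pairs it with a TEAD4 sample. The count of Eif genes at least 2-fold over input in both TEAD4 samples was 8 here. Percentages in brackets are shares of all genes under the same setting. That count was 5 with normexp (3.79%), 20 with quantile normalisation (27.9%), 13 with a common spread (15.3%) and 3 with 1000 bp (2.21%). It was 17 at 1.5-fold (20.2%) and 0 at 3-fold (0.78%). Of the 5 with normexp, 4 were among the 8. Over input and control together, 6 (2.55%) became 15 with quantile normalisation (17.2%), 12 with a common spread (9.04%) and 0 with 1000 bp (0.968%). It became 2 with at least 5 probes (1.66%), 10 at 1.5-fold (9.11%) and 0 at 3-fold (0.411%). Above the control by size, 22 (29.9%) became 7 with normexp (8.47%) and 13 with a common spread (12.5%). That count became 8 with 1000 bp (13.1%), 10 with 5 probes (16.5%), 36 at 1.5-fold (63.4%) and 5 at 3-fold (4.75%). Uncentred it was 37 of 50, about the same share as among all genes. Below the control by size, 43 (81.8%) became 6 with normexp (11.7%), 17 with quantile normalisation (30.7%) and 17 with a common spread (31.7%). With normexp the control was over input at 11 genes (20.4%) in place of 48 (85.6%). By limma, higher than input was 18 (23.9%), and 11 with normexp (12.4%) and 29 with quantile normalisation (40.2%). Lower was 4 (11.8%), and 0 with normexp (0.302%), where 2 Eif genes had an unadjusted p under 0.05. It was 1 with quantile normalisation (6.24%), 2 with 250 bp (6.41%) and 2 with 5 probes (10.7%). Higher than the control was 6 (12.4%), and 1 with normexp (1.69%), 10 with loess (20.8%) and 20 uncentred (50.4%). Lower than the control was 43 (81.0%), and 2 with normexp (4.45%) and 3 with quantile normalisation (3.13%). With a common spread 0 were higher (0.774%, 10 Eif genes unadjusted) and 0 lower (0.206%, 6 Eif genes unadjusted). The median TEAD4 start window, 0.30, was 0.27 with normexp, 0.32 with loess, 0.64 with quantile normalisation, 0.44 with a common spread, 0.32 with 250 bp and 0.22 with 1000 bp. Leaving out 1 TEAD4 sample gave 0.32 to 0.34 for that median, 10 to 11 genes over input (8.05% to 15.5% of all genes), 28 to 29 above the control (42.3% to 46.0%), 45 to 47 below it (84.9% to 86.4%) and 6 to 8 over both (3.87% to 8.26%). The causes were not tested. Of 276 top window values of 23 named genes under the alternatives, 175 moved by less than the spread of the TEAD4 samples, 99 by more, and 2 changed sign, both of Eif4b (-0.0011 with 1000 bp and -0.034 with 5 probes). Leaving out dim probes or keeping non-uniform ones changed none of these counts by over 1.5 times.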
